A study of Homo sapiens with 12 samples.

Results

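The genes described here are interferon-stimulated antiviral genes, a set of 54 named genes whose transcription is raised by interferons in most cell types. The members are a list of gene symbols, with no threshold on the measured values in its rule. The list was chosen with earlier results of these data known. Shares of members called, set beside those of all genes, are therefore a description and not a test of the set. Of the 54, 53 were read from a row of the array that carries their symbol and no other, and all 53 passed the filter on low values among 20572 genes tested. The remaining member, TRIM25, a ubiquitin ligase that acts on RIGI, shares its row with another symbol and was not analysed here. The cells were MDA-MB-231, an established human breast cancer line taken from a pleural effusion and grown as 1 line throughout. There were 4 groups of 3 samples. Control cells were untreated. One treated group received tumour necrosis factor alpha (TNFα), a proinflammatory cytokine, at 40 ng/ml, another received apigenin, a plant flavone, at 40 µM, and the last received TNFα at 40 ng/ml together with apigenin at 40 µM. Treatment lasted 24 h in every treated group. The agents were prepared in a buffered salt solution (HBSS). The labels do not say whether control cells received that solution. No interferon, nucleic acid or virus is named among the treatments.

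Interferons bind receptors at the cell surface and activate the kinases JAK1 and TYK2. The kinases switch on a transcription factor complex that contains IRF9, and the complex binds the interferon-stimulated response element in the promoters of its targets. The products of those targets sense foreign RNA and DNA, degrade it or block its translation, alter membranes that viruses cross, and tag proteins with ubiquitin or the ubiquitin-like ISG15. Many of the genes also have a basal level without added interferon, which in cancer lines varies from line to line.

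RNA was measured on Affymetrix whole-transcript arrays, and each value is a deposited log2 expression value per probe set. The lower quartile of the arrays ran from 1.597 to 1.645, the median from 2.091 to 2.159 and the upper quartile from 3.311 to 3.558. Of the 53 members, 44 lay above the median of their own array on all 12 arrays. The other 9, which the array measured near its lower end, were EPSTI1, CMPK2, IFI44L, MX2, RTP4, OAS1, PARP9, ISG20 and DHX58. Defining genes of the line such as VIM, CD44, AXL and CAV1 lay above the upper quartile on all 12 arrays, and ESR1, PGR, FOXA1 and CDH1 on none. EPCAM and GATA3, listed as low in the line, lay above it on all 12. Markers of leukocytes, which respond strongly to interferon, had a mean between 1.71 and 1.87 on every array, and PTPRC, their defining surface protein, was below the lower quartile on all 12. The labels number the samples of a group but do not say that they were separate cultures, so the p-values rest on the variation among these samples, and part of it may be technical. In bulk RNA, fewer cells expressing a gene and less RNA per cell cannot be told apart.

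Promoter sequences were read to show what the members carry in common. RefSeq promoters on build GRCh38.p14 were at hand for 44 of the 54 members. The 250 bases before the annotated start were searched on both strands for the core of the interferon-stimulated response element, spelled GAAA, any 2 bases, GAAA. The core was found in 23 of the 44 (52.3%), against 839 of 27305 promoters of all genes (3.07%). The windows below are those of the 4 members with an interferon-response core that differed most with apigenin. They run 5′ to 3′ on the gene's strand, with the core in capitals, and TTTC, any 2 bases, TTTC is the same core read on the opposite strand. IFIT3 lies at chr10:89327833-89327892 on the plus strand, PARP14 at chr3:122680779-122680838 on the plus strand, DDX60 at chr4:168318789-168318848 on the minus strand and PARP12 at chr7:140062952-140063011 on the minus strand.
IFIT3: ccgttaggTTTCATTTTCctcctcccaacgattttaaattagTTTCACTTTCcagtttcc
PARP14: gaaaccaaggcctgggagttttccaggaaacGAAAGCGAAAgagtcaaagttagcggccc
DDX60: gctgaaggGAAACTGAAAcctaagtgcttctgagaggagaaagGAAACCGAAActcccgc
PARP12: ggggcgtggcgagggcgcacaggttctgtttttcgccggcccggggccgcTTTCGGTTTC
IFIT3 and DDX60 hold 2 copies of the core in these windows, and PARP14 and PARP12 hold 1. The core stood in 7 of the 12 members that fell with apigenin (58.3%), in the single member that rose, IFI6, and in 15 of the 30 not called (50%). RIGI, XAF1, IFI16, SP100 and RNF213 fell and had no match to these letters in the window. A match is a description of the letters only.

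Part of the set was lower with apigenin. Compared with control, 12 of 53 members fell and 1 rose (limma, Benjamini-Hochberg adjusted p below 0.05 over all genes tested), which is 22.6% lower and 1.89% higher. Over all genes, 6.83% were lower and 4.55% higher. After quantile normalisation 17 members were called lower and 1 higher, against 9.72% and 5.16% of all genes. The median difference of the members was -0.24 on the log2 scale, against -0.02 over all genes. A negative sign was found for 41 of 53 members and for 10960 of 20572 genes. The members that fell were RIGI, IFIT3, PARP14, DDX60, XAF1, PARP12, IFIT1, IFI44, IFI16, SP100, RNF213 and PLSCR1, and the one that rose was IFI6.

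Part of the set was also lower with apigenin when TNFα was present. With TNFα and apigenin together compared with TNFα alone, 10 of 53 members fell and 3 rose (18.9% and 5.66%, against 5.92% lower and 4.21% higher over all genes). The median difference was -0.19, against -0.01 over all genes. These groups share no sample with the apigenin and control groups, although the fit pools their variance. Of the 13 members called in each comparison, 8 were called in both, each with the same sign: RIGI, IFIT3, IFI16, PARP12, RNF213, SP100 and XAF1 fell and IFI6 rose. Over all 53 members, 36 were negative in both comparisons, 10 positive in both and 7 of opposite sign. The matching counts of shared calls and signs over all genes were not made.

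**Figure D1:**
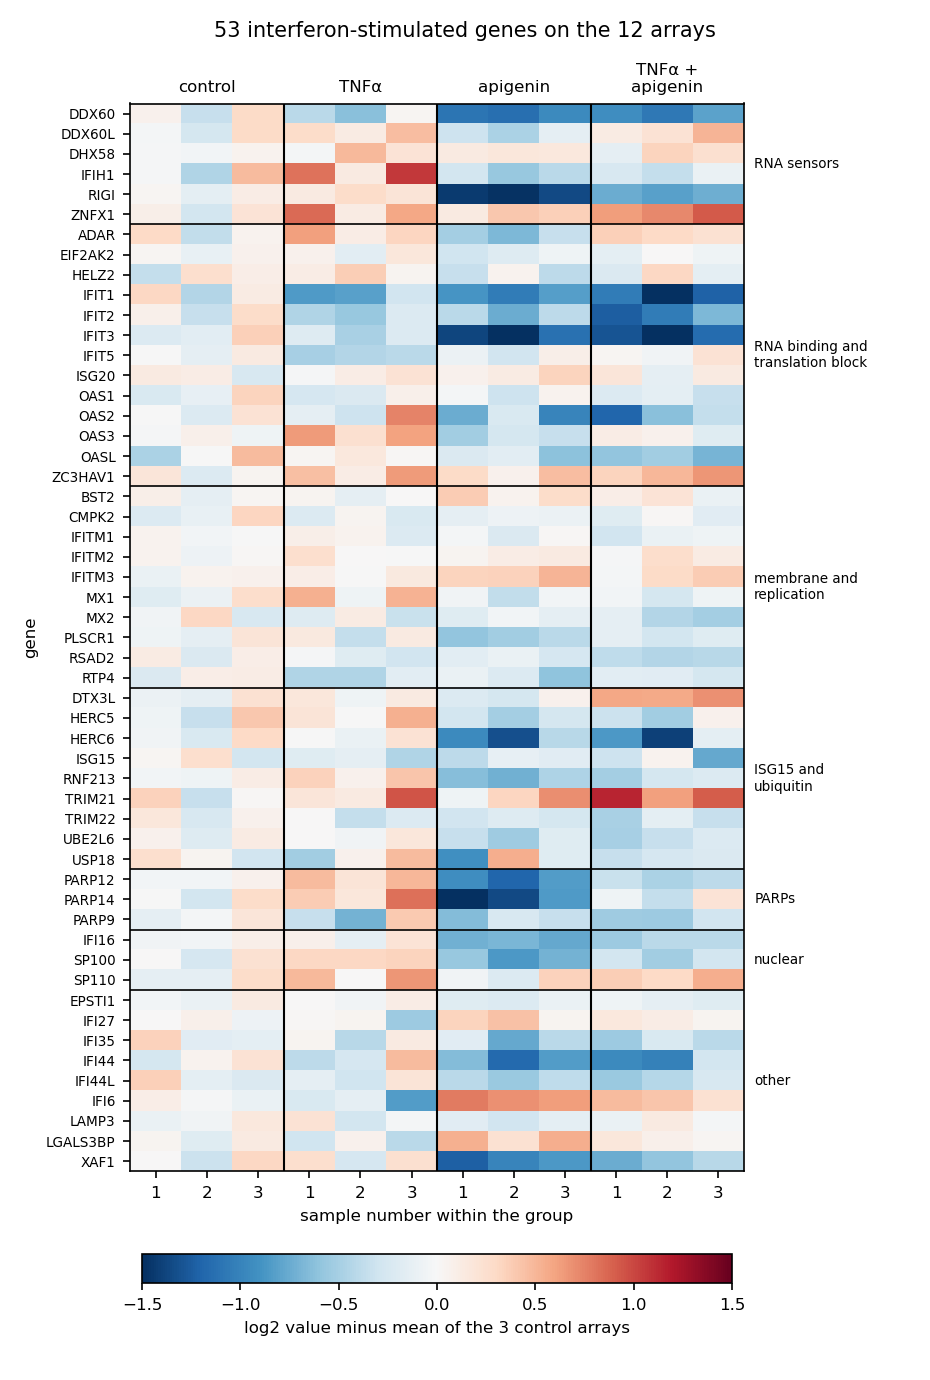
Each row is 1 of the 53 members, grouped by role, and each column 1 of the 12 arrays; colour gives the log2 value minus the mean of the 3 control arrays, from blue (lower) to red (higher). RIGI, IFIT3, DDX60, PARP12, PARP14 and XAF1 are blue on all 3 apigenin arrays, while most rows for the membrane proteins stay pale.

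The level of small nucleolar RNAs also differed between groups. The median of 194 probe sets for small nucleolar and Cajal body RNAs was 5.62 to 5.89 on the control arrays, 5.95 to 6.81 with apigenin, 4.96 to 6.28 with TNFα and 5.97 to 6.07 with both agents. It was higher on all 3 apigenin arrays than on the control arrays, while the values with both agents lay inside the range with TNFα. What sets this level was not tested. With this median as a covariate, 8 members were called lower with apigenin and none higher (RIGI, IFIT3, PARP14, DDX60, XAF1, PARP12, IFI16 and SP100), against 3.02% of all genes lower and 3.08% higher. Since the median itself separated apigenin from control arrays, a call lost in this fit cannot tell its part from that of the treatment. In TNFα-treated cells the same covariate left 4 lower (RIGI, IFIT3, PARP12 and SP100) and 2 higher (IFI6 and DTX3L), against 3.17% and 3.21%.

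Some markers of epithelial identity were also lower with apigenin, while EPCAM, CDH1, KRT8 and ELF3 were called in no comparison. Of 5 luminal breast markers, the keratins KRT18 and KRT19 and the transcription factor SPDEF were called lower with apigenin than in control cells, and KRT19 and SPDEF also with both agents than with TNFα. SPDEF had means of 4.28 in control cells, 3.65 with TNFα, 2.97 with apigenin and 2.78 with both. The mean of the 5 was between 3.86 and 3.98 on control arrays and between 3.14 and 3.53 on apigenin arrays. It was between 3.56 and 3.72 on TNFα arrays. On arrays of the combined treatment the mean of the 5 was between 3.12 and 3.17. Among 7 genes that define the line, EGFR and CAV1 were called lower with apigenin, and EGFR and CD44 with both agents than with TNFα. The mean of the 7 ran from 8.63 to 8.81 in control cells and 8.35 to 8.48 with apigenin. KDR, a receptor of endothelial cells, was lower with both agents than with TNFα (means 3.51 and 5.14). The part of these shifts in the differences of the members was not tested.

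Among the sensors of foreign RNA, RIGI was called lower with apigenin than in control cells and IFIH1 was not. Each of them was called lower with both agents than with TNFα, and genes were not tested against each other. RIGI, which recognises the triphosphate end of viral RNA and signals through MAVS, had values of 7.78, 7.60 and 7.86 in control cells, 7.88, 8.03 and 7.94 with TNFα, 6.31, 6.27 and 6.40 with apigenin, and 7.01, 6.93 and 7.02 with both. No apigenin value overlapped any value of another group, and the combined treatment lay between apigenin and control. RIGI fell with apigenin by 1.42 (SE 0.11, adjusted p = 5.2e-06), a fold of 2.68, and by 0.96 when TNFα was present (SE 0.11, adjusted p = 1.4e-04). IFIH1, the sensor of long double-stranded RNA, had values of 2.99, 2.56 and 3.48 in control cells, 3.83, 3.15 and 4.07 with TNFα, 2.74, 2.44 and 2.60 with apigenin, and 2.77, 2.65 and 2.91 with both. Its control samples spread widely and overlapped each other group. IFIH1 was lower with both agents than with TNFα alone (-0.91, SE 0.24, adjusted p = 0.0264), a call lost without TNFα sample 1 or 3 or combined-treatment sample 1 or 2 (adjusted p up to 0.112). Its difference between apigenin and control was -0.42 (adjusted p = 0.337).

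DDX60 and ZNFX1, both helicases that help detect viral RNA, went in different directions. DDX60 had values of 4.17, 3.76 and 4.40 in control cells, 3.71, 3.48 and 4.14 with TNFα, 3.02, 2.98 and 3.16 with apigenin, and 3.18, 3.04 and 3.31 with both. All 6 apigenin-treated samples lay below all 6 others. DDX60 fell with apigenin by 1.06 (SE 0.18, adjusted p = 0.00193) and was lower with both agents than in control cells (-0.93, adjusted p = 0.00386). The difference of DDX60 between both agents and TNFα alone, -0.60, was not called (adjusted p = 0.053). It was called after quantile normalisation (-0.61, adjusted p = 0.0149) and with the replicate number as a block (adjusted p = 0.00455). ZNFX1 had values of 5.25, 4.88 and 5.37 in control cells, 6.01, 5.28 and 5.74 with TNFα, 5.29, 5.56 and 5.52 with apigenin, and 5.79, 5.88 and 6.08 with both. It was called only for both agents against control (0.75, SE 0.18, adjusted p = 0.0144), and not without control sample 2 or combined-treatment sample 3 (adjusted p up to 0.0631). DHX58, a regulator of the other sensors, and DDX60L, the neighbour and relative of DDX60, were called in none of the 6 comparisons, with differences of 0.15 and -0.31 between apigenin and control.

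**Figure D2:**
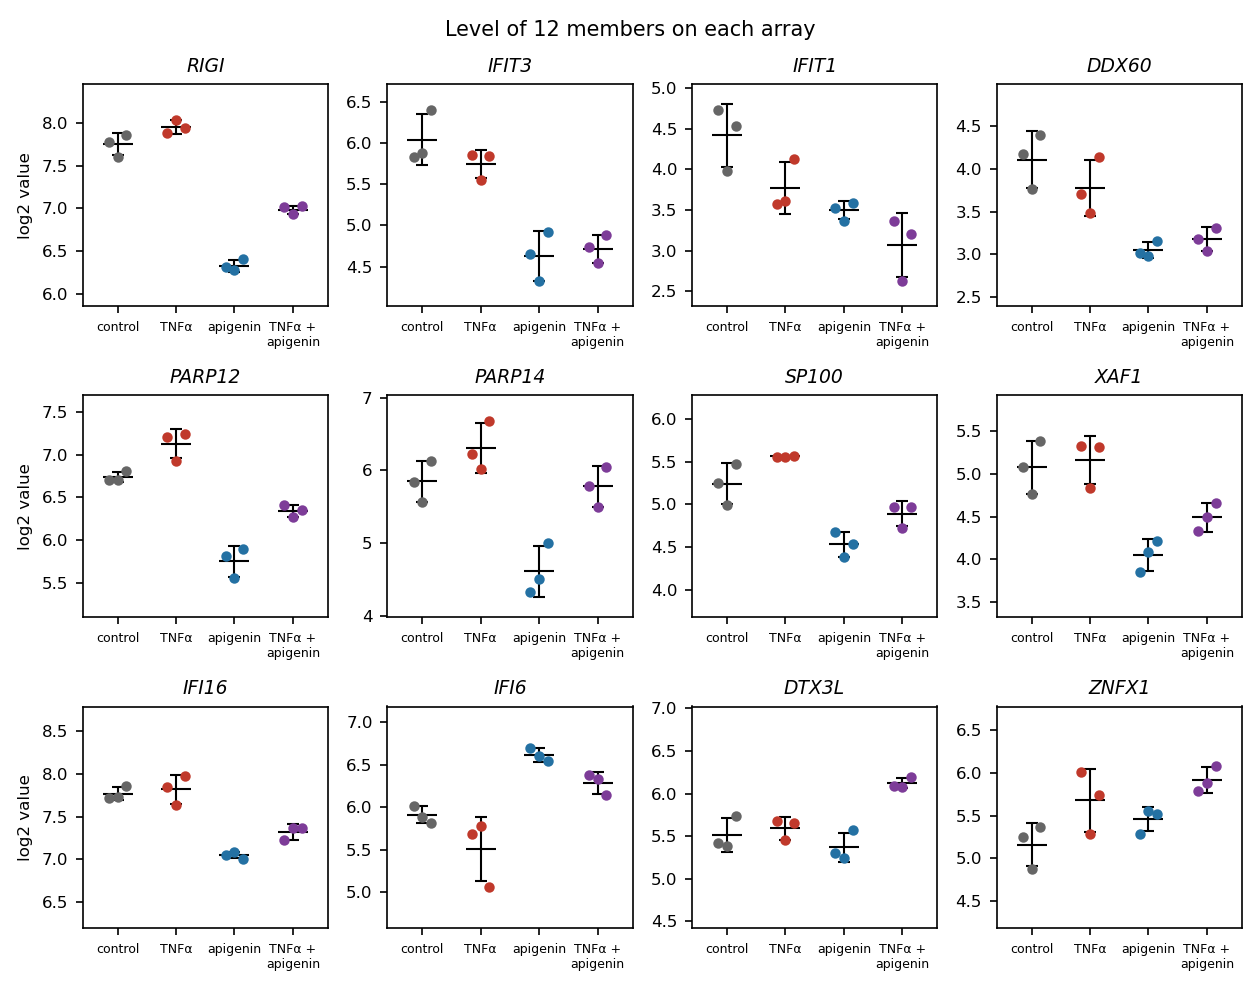
Points are the log2 values of single arrays (3 per group) for 12 members, with the group mean as a bar and the SD as whiskers; each panel has its own vertical range. RIGI falls from 7.75 in control cells to 6.32 with apigenin and stands at 6.98 with both agents, while IFIT3 stands near 4.63 and 4.72, and IFI6 is higher in both apigenin groups.

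Among proteins that bind viral RNA, the 4 IFIT genes, neighbours in the genome, did not share their calls. IFIT3, which stabilises the IFIT1 complex on RNA, had values of 5.83, 5.88 and 6.40 in control cells, 5.85, 5.55 and 5.84 with TNFα, 4.66, 4.33 and 4.92 with apigenin, and 4.74, 4.54 and 4.88 with both. The 2 apigenin-treated groups overlapped each other and lay below the other 2. IFIT3 fell with apigenin by 1.40 (SE 0.18, adjusted p = 2.8e-04) and, in TNFα-treated cells, by 1.03 (SE 0.18, adjusted p = 0.00277). IFIT1, which binds RNA with an unmethylated cap, had values of 4.73, 3.98 and 4.54 in control cells, 3.57, 3.61 and 4.13 with TNFα, 3.53, 3.37 and 3.59 with apigenin, and 3.37, 2.63 and 3.21 with both. Each treated group had a mean below control, and the combined treatment had the lowest. IFIT1 was lower with both agents than in control cells (-1.35, SE 0.22, adjusted p = 0.00131) and fell with apigenin by 0.92 (SE 0.22, adjusted p = 0.0161), a call lost without control sample 1 or 3 or apigenin sample 2 (adjusted p up to 0.0748). Its difference with TNFα alone was -0.65 (adjusted p = 0.259).

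IFIT2, which partners IFIT1 and IFIT3, had values of 4.66, 4.23 and 4.85 in control cells and 3.34, 3.53 and 3.91 with both agents, with no overlap. It was lower there by 0.99 on the log2 scale (-0.99, SE 0.19, adjusted p = 0.00313). Its differences with apigenin (-0.51, adjusted p = 0.104) and with TNFα (-0.40, adjusted p = 0.426) were not called. The apigenin samples of IFIT2 did not overlap control, and the difference was called after quantile normalisation (-0.57, adjusted p = 0.0148) and without control sample 2 (-0.69, adjusted p = 0.034). IFIT5, which binds triphosphate RNA on its own, had values of 5.07, 4.95 and 5.22 in control cells, 4.58, 4.64 and 4.68 with TNFα, 4.99, 4.79 and 5.17 with apigenin, and 5.11, 5.03 and 5.30 with both. The 3 TNFα values lay below all 9 others. IFIT5 was higher with both agents than with TNFα (0.52, SE 0.13, adjusted p = 0.0213), a call lost without TNFα sample 1 or combined-treatment sample 1 or 3 (adjusted p up to 0.0875), and its difference between TNFα and control was -0.45 (adjusted p = 0.15), called after quantile normalisation (-0.55, adjusted p = 0.0107).

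The oligoadenylate synthetases, which make the activator of the antiviral RNase L, were not called with apigenin alone. OAS3 had values of 3.34, 3.44 and 3.29 in control cells, 4.0, 3.6 and 3.96 with TNFα, 2.84, 3.10 and 3.01 with apigenin, and 3.47, 3.43 and 3.18 with both. Its apigenin samples lay below control (-0.38, adjusted p = 0.1), a difference called after quantile normalisation (-0.44, adjusted p = 0.0459). OAS3 was lower with both agents than with TNFα (-0.49, SE 0.14, adjusted p = 0.0349), a call lost without TNFα sample 1 or 3 or any 1 of the combined-treatment samples (adjusted p up to 0.141). OASL, a relative without synthetase activity that promotes RIGI signalling, was also lower there (-0.68, SE 0.20, adjusted p = 0.0455), and that call held in only 3 of the 12 fits that left out 1 array (adjusted p up to 0.127). OAS1 and OAS2 were called in no comparison. OAS2 differed by -0.66 with apigenin (adjusted p = 0.169) and by -0.82 between both agents and TNFα (adjusted p = 0.083), the second called after quantile normalisation (-0.83, adjusted p = 0.0467). OAS2 had means of 3.80 in control cells, 3.90 with TNFα, 3.14 with apigenin and 3.08 with both, and its TNFα samples were 3.66, 3.49 and 4.54.

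None of the other 5 genes of this group was called in the 6 comparisons as fitted. EIF2AK2, the kinase that halts translation on double-stranded RNA, kept means between 7.42 and 7.64 in the 4 groups. ZC3HAV1, which marks CpG-rich viral RNA for decay, had means between 7.11 and 7.61. ADAR, the editor of double-stranded RNA, had a mean of 6.22 in control cells, 5.71 with apigenin and 6.52 with both, and its difference between the last 2 was 0.80 (adjusted p = 0.121). Between apigenin and control ADAR differed by -0.51 (adjusted p = 0.0809). That difference was called after quantile normalisation (-0.53, adjusted p = 0.029) and without control sample 2 (-0.69, adjusted p = 0.0176). The exonuclease ISG20 and the helicase HELZ2 had differences of 0.17 and -0.23 between apigenin and control.

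Among 10 genes that act on membranes, viral entry and replication, 1 was called with apigenin, PLSCR1, a phospholipid scramblase, which fell. Its values were 3.01, 2.94 and 3.26 in control cells, 3.22, 2.71 and 3.21 with TNFα, 2.48, 2.55 and 2.67 with apigenin, and 2.93, 2.79 and 2.89 with both. The difference was -0.50 (SE 0.15, adjusted p = 0.0415), and the call held in 4 of the 12 fits without 1 array (adjusted p up to 0.145). RSAD2, which makes a nucleotide that stops viral polymerases, was lower with both agents than in control cells (-0.41, SE 0.12, adjusted p = 0.0415), a call that likewise held in 4 of 12 (adjusted p up to 0.149). The median difference of the 10 with apigenin was -0.11. BST2, which tethers budding virus, the entry blockers IFITM1, IFITM2 and IFITM3, the GTPases MX1 and MX2, the nucleotide kinase CMPK2 and the chaperone RTP4 were called in no comparison. IFITM3 came nearest among them, with a difference of 0.39 between apigenin and control (adjusted p = 0.0661), called without combined-treatment sample 1 (adjusted p = 0.0471). MX1 was called lower with both agents than with TNFα without TNFα sample 2 (-0.65, adjusted p = 0.0221).

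In the ISG15 and ubiquitin system, ISG15, its conjugating enzyme UBE2L6 and its ligase HERC5 were not called in any comparison. ISG15 itself had values of 5.31, 5.53 and 5.01 in control cells, 5.10, 5.15 and 4.83 with TNFα, 4.89, 5.16 and 5.11 with apigenin, and 4.97, 5.33 and 4.51 with both, and all groups overlapped. UBE2L6 differed by -0.35 with apigenin (adjusted p = 0.124, and 0.0285 after quantile normalisation), and HERC5 by -0.35 (adjusted p = 0.344). Between both agents and TNFα, HERC5 was called after quantile normalisation (-0.52, adjusted p = 0.0309). HERC6, a relative of HERC5, differed by -0.90 (adjusted p = 0.0529) with apigenin samples at 4.30, 3.94 and 4.84 against 5.21, 5.03 and 5.56 in control cells. That difference of HERC6 was called in 5 of 8 other settings and in 3 of the 12 fits without 1 array (adjusted p from 0.0197 to 0.198 over the 12). USP18, which removes ISG15 and restrains the interferon receptor, ranged from 3.21 to 4.68 within the apigenin group alone. TRIM22, a ubiquitin ligase against several viruses, had means between 2.37 and 2.70.

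RNF213, a giant ubiquitin ligase that coats intracellular pathogens, was the member of this group that fell with apigenin. Its values were 5.54, 5.52 and 5.69 in control cells, 5.93, 5.65 and 6.0 with TNFα, 4.94, 4.86 and 5.12 with apigenin, and 5.07, 5.32 and 5.38 with both. All 6 apigenin-treated samples lay below all 6 others. The difference was -0.61 both without TNFα (SE 0.13, adjusted p = 0.00849) and with it (SE 0.13, adjusted p = 0.0103), the second lost without combined-treatment sample 1 (adjusted p = 0.0584). DTX3L, a ubiquitin ligase that works as a pair with PARP9, had values of 5.42, 5.38 and 5.74 in control cells, 5.68, 5.45 and 5.65 with TNFα, 5.30, 5.25 and 5.57 with apigenin, and 6.09, 6.08 and 6.19 with both. The combined treatment stood above all 9 other samples. DTX3L was higher there than with control (0.61, SE 0.13, adjusted p = 0.00772), TNFα (0.53, SE 0.13, adjusted p = 0.0215) and apigenin (0.75, SE 0.13, adjusted p = 0.039). The call against TNFα was lost without TNFα sample 2 or any 1 of the combined-treatment samples (adjusted p up to 0.0741), and the call against apigenin held in 4 of 12 fits without 1 array (adjusted p up to 0.236). TRIM21, the cytosolic antibody receptor, was higher with both agents than in control cells (0.89, SE 0.25, adjusted p = 0.0329), a call lost without control sample 2 or 3 or combined-treatment sample 1 or 3 (adjusted p up to 0.132).

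The ADP-ribosyltransferases PARP12 and PARP14, which modify proteins of virus and host, fell with apigenin. PARP12 had values of 6.70, 6.70 and 6.81 in control cells, 7.21, 6.93 and 7.24 with TNFα, 5.81, 5.55 and 5.90 with apigenin, and 6.41, 6.27 and 6.35 with both. The 4 groups did not overlap, with TNFα highest and apigenin lowest. PARP12 fell by 0.98 without TNFα (SE 0.13, adjusted p = 2.7e-04) and by 0.78 with it (SE 0.13, adjusted p = 0.00164). The neighbouring steps in that order, TNFα above control (0.39, adjusted p = 0.223), both agents below control (-0.39, adjusted p = 0.0608) and both agents above apigenin (0.59, adjusted p = 0.122), were not called.

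PARP14 had values of 5.84, 5.57 and 6.13 in control cells, 6.23, 6.02 and 6.68 with TNFα, 4.33, 4.50 and 5.00 with apigenin, and 5.78, 5.49 and 6.05 with both. The apigenin group stood apart, and the combined treatment overlapped control. PARP14 fell with apigenin by 1.24 (SE 0.22, adjusted p = 0.00224), and its difference when TNFα was present was -0.53 (adjusted p = 0.165). The latter was called after quantile normalisation (-0.57, adjusted p = 0.0383) and with the replicate number as a block (adjusted p = 0.0071). PARP9, the inactive partner of DTX3L, had a difference of -0.42 with apigenin (adjusted p = 0.292). PARP9, DTX3L and PARP14 are neighbours in the genome, and only DTX3L and PARP14 were called in any comparison.

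IFI16 and SP100, which act on foreign DNA in the nucleus, fell with apigenin, and SP110, the relative of SP100, did not pass the test. IFI16, a DNA sensor, had values of 7.72, 7.73 and 7.86 in control cells, 7.85, 7.63 and 7.98 with TNFα, 7.05, 7.09 and 7.0 with apigenin, and 7.22, 7.36 and 7.37 with both. All 6 apigenin-treated samples were below all 6 others. IFI16 fell by 0.72 (SE 0.12, adjusted p = 0.00117) and, in TNFα-treated cells, by 0.51 (SE 0.12, adjusted p = 0.0133), the second call lost without TNFα sample 1 or 3 or combined-treatment sample 1 (adjusted p up to 0.0669). It was also lower with both agents than in control cells (-0.46, adjusted p = 0.019), but not without control sample 3 or combined-treatment sample 1 (adjusted p up to 0.0851).

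SP100, a component of nuclear bodies that silence incoming viral genomes, had values of 5.25, 4.99 and 5.47 in control cells, 5.55, 5.55 and 5.57 with TNFα, 4.67, 4.38 and 4.53 with apigenin, and 4.97, 4.72 and 4.97 with both. It fell by 0.71 without TNFα (SE 0.14, adjusted p = 0.00421) and by 0.67 with it (SE 0.14, adjusted p = 0.0071), and both calls held whichever array was left out. SP110 had a difference of 0.03 between apigenin and control.

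The remaining 9 members included the one that rose with apigenin. IFI6, a membrane protein that blocks flavivirus replication and cell death, had values of 6.01, 5.89 and 5.81 in control cells, 5.68, 5.78 and 5.07 with TNFα, 6.69, 6.6 and 6.54 with apigenin, and 6.38, 6.33 and 6.14 with both. All 6 apigenin-treated samples were above all 6 others. IFI6 rose by 0.71 without TNFα (SE 0.16, adjusted p = 0.0122), a call lost without apigenin sample 1 (adjusted p = 0.0528), and by 0.77 with it (SE 0.16, adjusted p = 0.00834). XAF1, which opposes an inhibitor of apoptosis, had values of 5.08, 4.76 and 5.39 in control cells, 5.33, 4.83 and 5.32 with TNFα, 3.85, 4.09 and 4.22 with apigenin, and 4.33, 4.49 and 4.66 with both. It fell by 1.02 (SE 0.18, adjusted p = 0.00234) and by 0.67 when TNFα was present (SE 0.18, adjusted p = 0.0314), the second call lost without TNFα sample 1 or 3 or combined-treatment sample 1 or 2 (adjusted p up to 0.131).

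IFI44, a cytoplasmic protein, had values of 4.06, 4.37 and 4.54 in control cells and 3.67, 3.15 and 3.48 with apigenin. It fell by 0.89 (SE 0.24, adjusted p = 0.0302), a call lost without control sample 2 or 3 or apigenin sample 2 or 3 (adjusted p up to 0.119). Its neighbour IFI44L, dim on the array at means of 1.62 to 2.07, differed by -0.45 (adjusted p = 0.12). IFI27, IFI35, EPSTI1, LAMP3 and LGALS3BP were called in no comparison, and LGALS3BP, a secreted glycoprotein, came nearest with a difference of 0.44 between apigenin and control (adjusted p = 0.0712).

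**Figure D3:**
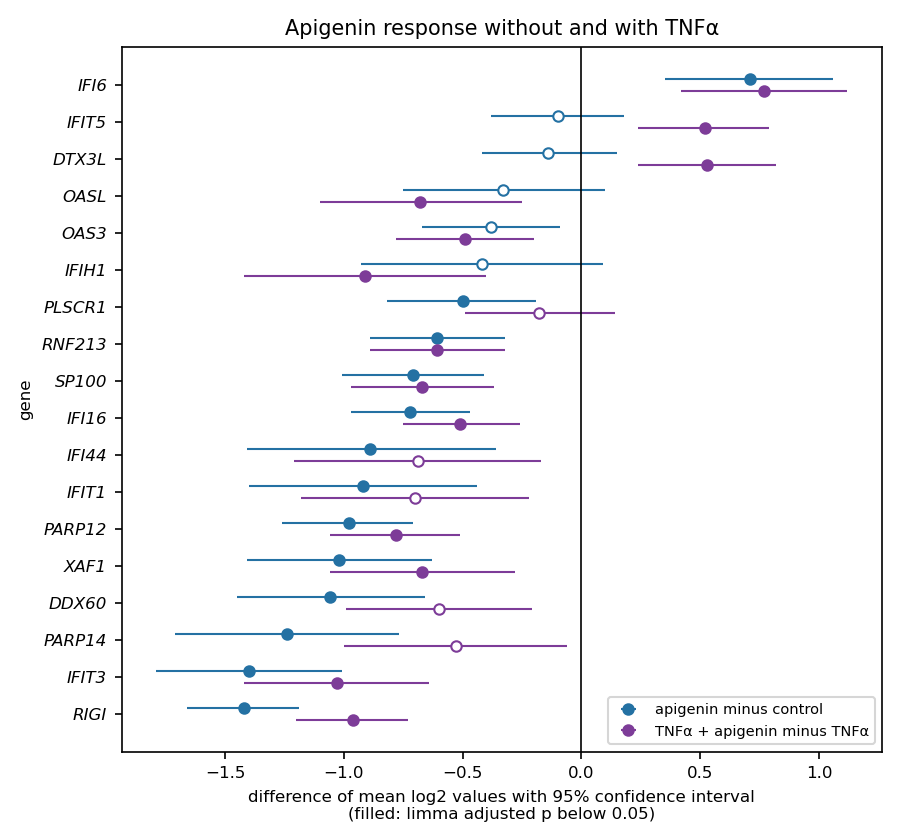
The horizontal axis gives the difference of mean log2 values with its 95% confidence interval for the 18 members called in either comparison, for apigenin minus control (blue) and for TNFα with apigenin minus TNFα (purple); filled points passed the adjusted threshold. RIGI, IFIT3, PARP12, XAF1, SP100, IFI16 and RNF213 are filled and negative in both, and IFI6 filled and positive in both.

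With TNFα alone, none of 53 members was called against control with limma, where 0.778% of all genes were higher and 0.219% lower. An unadjusted p under 0.05 was found for 11 of 53 members (20.8%) and for 2387 of 20572 genes (11.6%). The differences ran from -0.65 for IFIT1 to 0.67 for IFIH1, with a median of 0.03 that became -0.04 after quantile normalisation, where the median of all genes went from 0.02 to -0.01. Among those with groups that did not overlap were OAS3 (0.50, adjusted p = 0.126), PARP12 (0.39, adjusted p = 0.223), IFIT5 (-0.45, adjusted p = 0.15) and IFI6 (-0.40, adjusted p = 0.371). SP100 (0.32, adjusted p = 0.393) and RIGI (0.2, adjusted p = 0.52) did not overlap control either. Without TNFα sample 2, OAS3 was called (0.62, adjusted p = 0.0414), and after quantile normalisation IFIT5, as given above. With the replicate number as a block, IFIH1 was called higher (adjusted p = 0.0417) and IFIT5 lower (adjusted p = 0.0355).

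Added to apigenin, TNFα raised 2 members of 53 and lowered none (3.77% higher, against 0.209% over all genes, and 0% lower in both). The 2 were DTX3L, given above, and RIGI, higher by 0.66 (SE 0.11, adjusted p = 0.0269). The call of RIGI held in 5 of the 12 fits without 1 array (adjusted p up to 0.162), and neither gene was called in a fit of these 2 groups alone or with the small nucleolar RNA covariate. PARP14 had the largest difference among the members, 1.17 (SE 0.22), with an adjusted p of 0.0541, and ADAR, DDX60L and PARP12 differed by 0.80, 0.60 and 0.59 with groups that did not overlap. This comparison shares the apigenin samples with that of apigenin against control.

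Both agents together lowered 7 members and raised 3 compared with control (13.2% and 5.66%, against 5.37% lower and 7.15% higher over all genes). After quantile normalisation of the arrays the split was 16 lower and 3 higher, against 9.96% lower and 6.32% higher over all genes. The members that fell were IFIT1, IFIT3, IFIT2, DDX60, RIGI, IFI16 and RSAD2, and those that rose were TRIM21, ZNFX1 and DTX3L. IFIT3 differed by -1.32 (SE 0.18, adjusted p = 3.5e-04) and RIGI by -0.76 (SE 0.11, adjusted p = 4.7e-04). These control samples also serve the other comparisons with control.

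The difference between the apigenin effects with and without TNFα was tested as an interaction. No member was called by limma, where 0.00972% of all genes were called higher and 0.0437% lower. An unadjusted p under 0.05 was found for 4 of 53 members (7.55%) and for 870 of 20572 genes (4.23%). Those 4 were PARP14 (0.71, 95% interval 0.04 to 1.37), DTX3L (0.67, 0.26 to 1.07), IFIT5 (0.61, 0.22 to 1.01) and RIGI (0.46, 0.13 to 0.79), each with an adjusted p of at least 0.923. A smaller apigenin effect on RIGI in the presence of TNFα was therefore not shown by the test over all genes.

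The upstream pathway was read from 64 further genes, of which 56 were tested. The interferons themselves were near the lower end of the arrays. IFNB1 had means of 1.83 in control cells, 1.76 with TNFα, 1.71 with apigenin and 1.90 with both, and IFNL1 had means between 1.92 and 2.04. Only 4 of 10 interferon genes passed the filter and none was called.

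Of 9 receptors and kinases, IFNAR1, a chain of the type I interferon receptor, fell with apigenin. Its values were 6.70, 6.81 and 7.14 in control cells, 7.0, 7.09 and 7.29 with TNFα, 6.16, 6.02 and 6.35 with apigenin, and 6.68, 6.80 and 6.76 with both. The difference was -0.71 (SE 0.14, adjusted p = 0.0045), and it was -0.38 when TNFα was present (adjusted p = 0.112). IFNAR2, the other chain, differed by -0.22 with apigenin (adjusted p = 0.537), JAK1 by -0.25 (adjusted p = 0.171) and TYK2 by -0.07. Of 9 transcription factors, only IRF9 was called, with values of 4.21, 4.16 and 4.48 in control cells and 3.57, 3.73 and 3.88 with apigenin. It differed by -0.56 (SE 0.13, adjusted p = 0.014), a call lost without control sample 3 or apigenin sample 1 (adjusted p up to 0.0724), and the mean of its probe sets differed by only -0.08. IRF1, IRF3 and IRF7 differed by -0.24, -0.11 and 0.06, with adjusted p of 0.343, 0.779 and 0.87.

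Among 10 adaptors and kinases of nucleic acid sensing, TLR3, the endosomal receptor for double-stranded RNA, had the largest difference with apigenin alone. Its values were 4.77, 4.84 and 5.15 in control cells, 4.39, 4.86 and 4.76 with TNFα, 2.83, 2.68 and 3.10 with apigenin, and 2.86, 3.36 and 3.44 with both. All 6 apigenin-treated samples lay below all 6 others. TLR3 fell by 2.05 without TNFα (SE 0.18, adjusted p = 1.7e-05), a fold of 4.15, and by 1.45 with it (SE 0.18, adjusted p = 2.8e-04). MAVS, through which RIGI and IFIH1 signal, fell with apigenin by 0.82 (SE 0.18, adjusted p = 0.00918), and in TNFα-treated cells its difference of -0.60 held in 3 of the 12 fits without 1 array (adjusted p = 0.0495, up to 0.192). IKBKE, a kinase of IRF3, rose with TNFα by 2.17 (adjusted p = 0.00116), fell with apigenin by 1.24 (adjusted p = 0.00918) and was lower with both agents than with TNFα by 2.29 on the log2 scale (-2.29, adjusted p = 2.0e-04). TRAF3, an adaptor below the sensors, rose with TNFα by 1.19 and was higher by 1.0 when TNFα was added to apigenin, the second call held in 6 of 12 fits without 1 array (adjusted p up to 0.142). With both agents against control, TRAF3 (1.25), TRAF6 (0.91), CGAS (0.72) and TICAM1 (0.69) were higher and TLR3 (-1.70) lower, and the call of TRAF6 was lost without control sample 2 or combined-treatment sample 3 (adjusted p up to 0.075).

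With the small nucleolar RNA covariate, IKBKE, MAVS, IRF9 and GBP1 were not called for apigenin against control, nor MAVS, GBP2, PSMB9 and PTPN2 for both agents against TNFα. CD274 for TNFα against control, and GBP1 and TRAF3 for both agents against apigenin, were called neither with that covariate nor in a fit of the 2 groups alone.

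**Figure D4:**
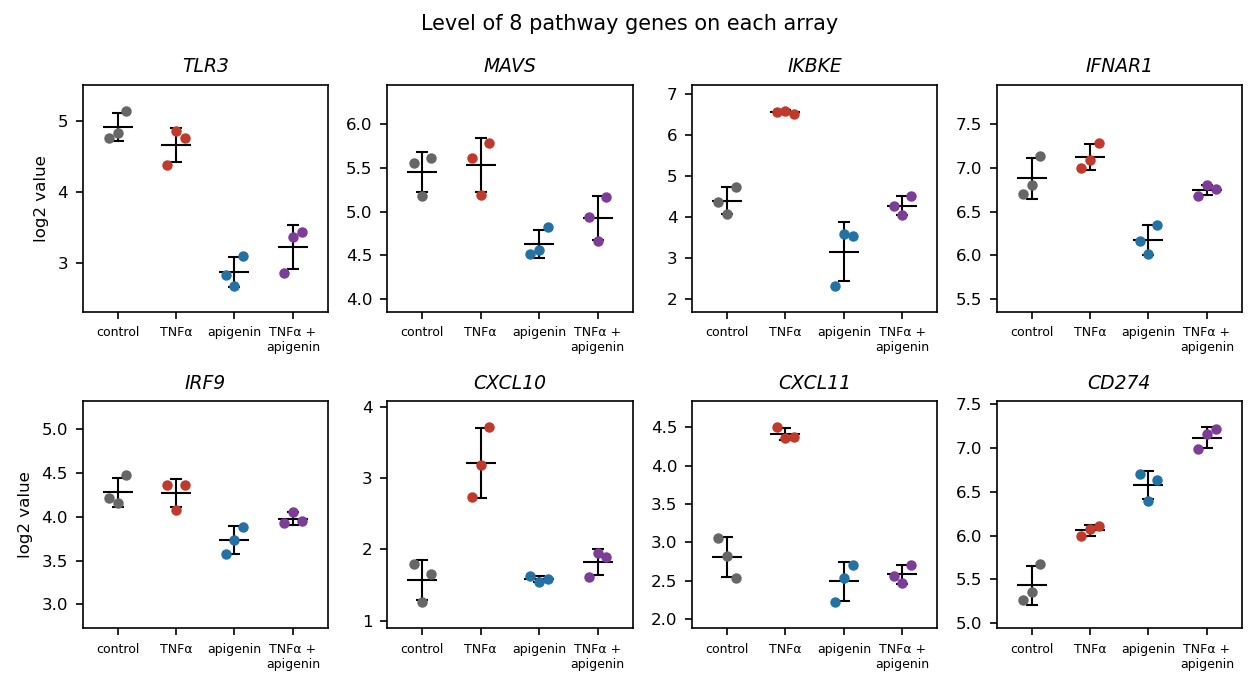
Points are the log2 values of single arrays (3 per group) for 8 genes of nucleic acid sensing, interferon signalling and shared interferon-gamma or NF-κB targets, with mean and SD; each panel has its own vertical range. TLR3 is low in both apigenin groups (means 2.87 and 3.22 against 4.92 in control), CXCL11 is highest with TNFα alone (mean 4.41), and CD274 is highest with both agents (7.12).

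A list of 14 targets shared by interferon-gamma and NF-κB had 3 genes called higher with TNFα. CXCL10 and CXCL11, chemokines for T cells, were among them and rose with TNFα by 1.65 and 1.60, and both agents together gave values lower than TNFα by 1.40 and 1.83 on the log2 scale (-1.40, adjusted p = 9.3e-04, and -1.83, adjusted p = 1.3e-05). CD274, the immune checkpoint ligand PD-L1, rose with apigenin by 1.15 (adjusted p = 1.2e-04) and stood at 1.69 above control with both agents (adjusted p = 5.5e-06). Its rise with TNFα, 0.63, was called in only 2 of the 12 fits without 1 array (adjusted p = 0.0403, up to 0.192). GBP1 and GBP3, interferon-induced GTPases, fell with apigenin by 0.70 and 0.68, the first not called without control sample 1 or 3 or apigenin sample 1 or 2 (adjusted p up to 0.135), and the mean of the probe sets of GBP3 differed by -0.27 (adjusted p = 0.233). GBP1 was higher by 1.07 when TNFα was added to apigenin, in 3 of 12 such fits (adjusted p up to 0.243). GBP2 (-0.86), the immunoproteasome subunit PSMB9 (-0.62) and the phosphatase PTPN2 (-0.60), the last from a list of 10 negative regulators with no other call, were lower with both agents than with TNFα. Those 3 calls held in 6, 10 and 9 of the 12 fits without 1 array (adjusted p up to 0.162, 0.0598 and 0.0634).

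Neighbouring members did not always share a call. Of the members, 23 stand in 9 groups of neighbours with at most 1 other gene between them. Within the IFIT group IFIT1 and IFIT3 were called with apigenin and IFIT2 and IFIT5 were not, DDX60 was called and DDX60L was not, and IFI44 was called and IFI44L was not. None of the IFITM, MX or HERC neighbours was called in the 6 comparisons as fitted, while HERC5, HERC6, MX1 and IFITM3 were called under some of the other settings given above. Across the whole set, 22 members were called in at least 1 of the 6 comparisons and 31 in none. The matching share over all genes was not computed, so these counts are a description only.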

How the data were processed

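The 12 samples were hybridised to Affymetrix whole-transcript arrays. Per the submitters' processing notes the authors used Affymetrix Expression Console, and the deposited values are on a log2 scale per probe set. The version, algorithm and settings were not found in the labels. Of 53617 probe sets, 23871 had 1 gene symbol in the platform table, 1842 several and 27904 none there. Symbols were updated through RefSeq for 22569 of them. Probe sets reaching the 25th percentile of their own array on at least 3 arrays were kept, and each gene was represented by the probe set with the highest mean, leaving 20572 genes. Each member had 1 probe set. Differences of group means were tested with limma 3.58.1 in R 4.3.3 (lmFit and eBayes on 4 group means, 8 residual degrees of freedom), with Benjamini-Hochberg adjustment over all genes, in 6 comparisons. The call threshold was an adjusted p of 0.05. An exact permutation test of 3 samples against 3 cannot give a two-sided p below 0.1, so none was used. The number of arrays limits the precision. Fits were tested on simulated data. Alternatives were quantile normalisation, other filters, the replicate number as a block, the mean of probe sets, another variance model, the median of small nucleolar RNAs as a covariate, only the groups compared, and leaving out each array. The members and all gene lists were chosen with earlier results of these data known. Every member is named; called members are given with their differences, and those not called by counts and examples. Called pathway genes and a fixed set of receptors, kinases and factors are named whatever their result. Promoter windows are from the RefSeq table of build GRCh38.p14. The array annotation names no build, so none of its coordinates were used.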

Additional observations from a re-analysis of the deposited data

Results flagged for a closer look

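CXCL11, a T-cell chemokine of the shared interferon-gamma and NF-κB list and not a member of the antiviral set, had an apigenin effect that differed between cells with and without TNFα (interaction -1.51, SE 0.22, limma adjusted p = 0.0342). Its difference between apigenin and control was -0.32, and between both agents and TNFα it was -1.83. The call held in 2 of the 12 fits without 1 array (adjusted p up to 0.159), and was lost with the small nucleolar RNA covariate and with the other variance model (adjusted p up to 0.0547). The cause was not tested.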

How the results depend on the processing

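No member with an adjusted p under 0.15 and no called pathway gene changed sign under the alternatives run. The members' median for TNFα against control did, from 0.03 to -0.04 with quantile normalisation. Of 38 calls of a member in a comparison, 19 held in every alternative and 20 in every fit without 1 array. Against 13 calls for apigenin and control, the small nucleolar RNA covariate gave 8 and quantile normalisation 18. Against 13 for both agents and TNFα, quantile normalisation gave 22, the covariate 6, and leaving out 1 array 5 to 15. Those 22 were 3 higher and 19 lower, against 4.81% and 8.56% of all genes. Against 2 for both agents and apigenin, the covariate gave 0, the groups compared alone 0, and leaving out 1 array 0 to 3. Against 10 for both agents and control, quantile normalisation gave 19. Against 0 for TNFα and control, quantile normalisation gave 1 and leaving out 1 array 0 to 1. The cause was not tested. The interaction stayed at 0 calls under every alternative. With the replicate block the counts were 2 for TNFα (IFIT5 lower, adjusted p = 0.0355, and IFIH1 higher, 0.0417), 18 for apigenin against control (2 higher and 16 lower), 23 for both agents against TNFα, 6 against apigenin and 18 against control. Over all genes, the block called 2.38% higher and 0.695% lower for TNFα, and 6.98% and 10% for apigenin against control. For both agents the shares were 6.68% and 9.43% against TNFα, 0.481% and 0.00486% against apigenin, and 10.4% and 8.19% against control. HERC5, HERC6, IFITM3, MX1 and IFIT2 were among the calls the block added. The numbers were not taken as pairing, since the labels do not say that a number is a shared batch, day or culture. Of 18 same-numbered pairs, 12 had deviations correlated above 0.1 (0.02 to 0.46). Also, 11 of 12 samples lay closest to a sample of their own number. Both are hints of pairing that come from the data and not from the design. Signal close to background limits the 9 members not above the array median throughout, and may limit others. Of the called members, RSAD2 (group means 2.29 to 2.70) and PLSCR1 (2.57 to 3.07) stayed below the upper quartile on every array.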
